A study of Arabidopsis thaliana with 8 samples.

Results

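The genes described here are IVD (AT3G45300), MCCA (AT1G03090), GAT1_2.1 (AT1G15040) and AT1G19530, 4 of the 13286 *Arabidopsis thaliana* genes that an ATH1 probe set names alone. They were picked by name, as genes known from these arrays to be much lower in the mutant dez than in wild type on control medium, so their values in that comparison are a description and carry no test. Together they have 5 such probe sets out of 13436, and 4 of the 5, 1 per gene, passed the filter on dim signals. Leucine breakdown is the established role of IVD and MCCA, while the sources used here give no such role to GAT1_2.1 or AT1G19530.

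The groups were dez on high zinc (100 µM), dez on control medium (1 µM), wild type on high zinc and wild type on control medium. All seedlings were whole, 7 days old and kept in darkness after a brief exposure of the seeds to light. Each group had 2 biological replicates of about 45 pooled seedlings and 1 array per replicate, so 8 arrays in 4 groups set the precision. The dez lesion is known to lie in TBR, a gene of a family that acetylates wall polysaccharides; where it sits in the gene is not stated. In pooled whole seedlings, fewer cells of a type and less RNA per cell cannot be told apart.

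Plants that run short of sugar can burn amino acids. Leucine is first turned into its keto acid and then into isovaleryl-CoA inside the mitochondrion. IVD, isovaleryl-CoA dehydrogenase, oxidises that compound and passes the electrons through the carrier ETF and its oxidoreductase ETFQO to the respiratory chain. MCCA is the biotin-carrying subunit of methylcrotonoyl-CoA carboxylase, the next enzyme, and MCCB is its other subunit. A hydratase and HMG-CoA lyase finish the route. GAT1_2.1 carries a class I glutamine amidotransferase domain and has been linked to the nitrogen control of shoot branching. AT1G19530 encodes a protein of unknown function whose transcript is known to rise at low oxygen.

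Values are the deposited intensities, on a linear scale, and all 4 genes were lowest in dez. IVD had intensities of 87.1 and 72.6 in dez on high zinc and 81.0 and 71.4 in dez on control medium. In wild type it had 192 and 161 on high zinc, against 241 and 361 on control medium. The dez arrays thus lay close together on both media and overlapped, and the wild-type arrays lay above all of them, with both high-zinc arrays under both control arrays. The group means were 79.8 ± 10.3 and 76.2 ± 6.78 in dez on high zinc and on control medium, and 176 ± 22.3 and 301 ± 84.4 in wild type in the same order of media (SD, n = 2).

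MCCA had intensities of 96.2 and 94.7 in dez on high zinc and 126 and 117 in dez on control medium. Its wild-type values were 237 and 155 on high zinc, against 260 and 456 on control medium. No groups overlapped, and the order from low to high was dez on high zinc, dez on control medium, wild type on high zinc and wild type on control medium. The wild-type groups came close at their nearest arrays, 237 and 260, and had the widest spread, with means of 196 ± 57.9 on high zinc and 358 ± 138 on control medium (SD, n = 2).

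GAT1_2.1 had intensities of 22.7 and 14.3 in dez on high zinc and 41.1 and 30.4 in dez on control medium. In wild type it had 184 and 146 on high zinc, against 266 and 272 on control medium. The order of the groups was that of MCCA, with no overlap and with wider steps between dez and wild type. These values come from the brighter of 2 probe sets of the gene. The other lay between 4.17 and 7.78 on all arrays, near the lowest values of the arrays (2.48 to 2.68), and failed the filter. Its dez arrays also lay below its wild-type arrays, at 4.17 to 5.05 against 5.34 to 7.78, but values this near the lowest of the arrays give no usable size, so the results for GAT1_2.1 rest on the brighter probe set.

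AT1G19530 spanned the widest range of the 4 genes. It had 24.2 and 23.1 in dez on high zinc and 138 and 72.9 in dez on control medium. In wild type it had 745 and 445 on high zinc, against 873 and 945 on control medium. Again no groups overlapped, and the order was that of MCCA and GAT1_2.1.

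**Figure D1:**
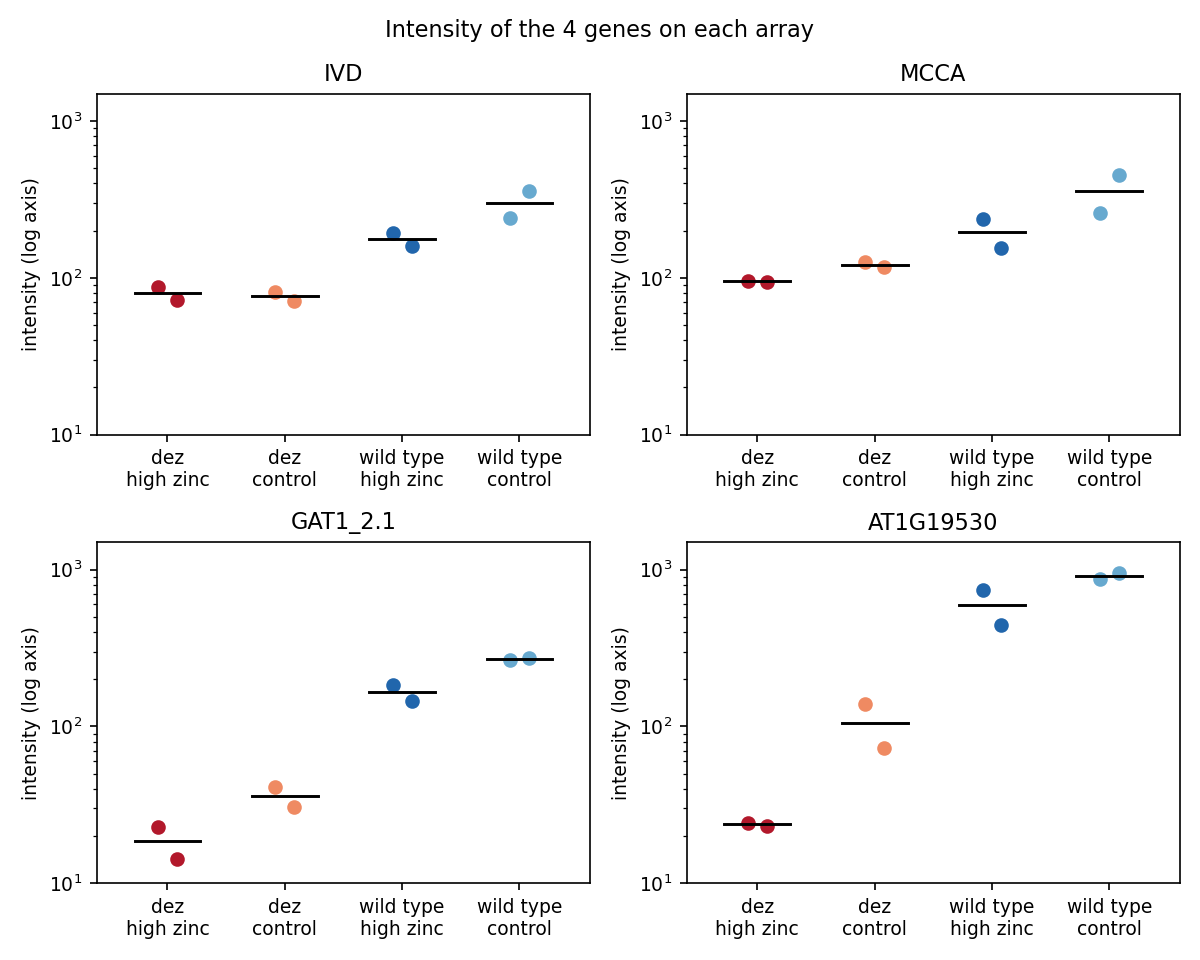
Intensity of IVD, MCCA, GAT1_2.1 (its brighter probe set) and AT1G19530 on each of the 8 arrays, on a log axis. Points are arrays and bars are the means of 2 replicates. In all 4 panels both dez groups lie below both wild-type groups. On high zinc the gap runs from 23.1 and 24.2 against 445 and 745 for AT1G19530 to 94.7 and 96.2 against 155 and 237 for MCCA.

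On control medium, the comparison that led to their choice, the 4 genes had differences between dez and wild type of -1.76 ± 0.18 for IVD, -1.39 ± 0.23 for MCCA, -2.47 ± 0.16 for GAT1_2.1 and -2.98 ± 0.26 for AT1G19530. These are differences of log2(intensity + 16) with the SE of the limma fit, a scale that understates changes of dim genes. Counted from the largest fall among 13648 tested probe sets, AT1G19530 stood at rank 4, GAT1_2.1 at 8, IVD at 26 and MCCA at 56. In this comparison 5.39% of tested probe sets were lower at an adjusted p under 0.05, and in 26.0% both dez arrays were below both wild-type arrays; nothing about the 4 genes is read from either share. IVD had a difference of -1.48 without wild-type control replicate 2 and -2.03 without replicate 1, and MCCA had -1.01 and -1.78 in the same order. AT1G19530 had -2.58 without dez control replicate 2 and -3.38 without replicate 1.

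High zinc gives a second comparison of dez with wild type on 4 other arrays, which did not choose IVD, MCCA or GAT1_2.1. Its SE and p-values still use a spread estimated from all 8 arrays, the control arrays included. With only the 4 high-zinc arrays fitted, the limma adjusted p was 7.62e-04 for IVD, 0.0046 for MCCA and 1.94e-05 for GAT1_2.1. All 3 genes were again lower in dez, in both arrays against both. IVD fell by 1.00 ± 0.18 in log2 units (SE; limma adjusted p = 0.0011), with a mean intensity 2.21-fold lower in dez. GAT1_2.1 fell by 2.39 ± 0.16 (limma adjusted p = 2.33e-06), with 18.5 ± 5.89 in dez against 165 ± 26.7 in wild type (SD, n = 2), an 8.92-fold lower mean. Its high-zinc dez values were dim, and the log2 difference was -3.11 at a pseudocount of 1 and -1.47 at 64. Without the filter GAT1_2.1 kept its call (limma adjusted p = 3.02e-06). MCCA fell by 0.90 ± 0.23 (limma adjusted p = 0.0108), with 95.5 ± 1.04 in dez against 196 ± 57.9 in wild type.

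These calls stand against a wide background, because 20.7% of all tested probe sets were lower in dez on high zinc at this threshold, and in 33.9% both dez arrays lay under both wild-type arrays. Of all tested probe sets, 4.39% had a difference at or below that of IVD, 5.72% at or below that of MCCA and 0.198% at or below that of GAT1_2.1. The MCCA call was lost without wild-type high-Zn replicate 1 (log2 difference -0.61, limma adjusted p = 0.0728), and without dez high-Zn replicate 1 or 2 (limma adjusted p = 0.060 and 0.0661). IVD and GAT1_2.1 kept their calls with any 1 array left out.

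AT1G19530 was already known as one of the largest falls on high zinc, so it is described only. Its difference between dez and wild type was -3.90 ± 0.26 on the log2 scale, with a mean of 23.7 ± 0.78 in dez against 595 ± 212 in wild type (SD, n = 2), 25.1-fold lower. The dez values were dim here too, and the difference was -4.55 at a pseudocount of 1 and -2.87 at 64. AT1G19530 stood at rank 6 from the largest fall.

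The directions above are relative to the other transcripts, and 2 of the calls depend on that. When the arrays were scaled to the poly-A spike controls, the median of all tested probe sets moved to 0.68 for dez against wild type on high zinc. IVD then had a log2 difference of -0.30 (limma adjusted p = 0.405) and MCCA one of -0.18 (limma adjusted p = 0.625), while GAT1_2.1 still had a fall, of -1.85 (limma adjusted p = 2.84e-08), and AT1G19530 had -3.29. The spikes averaged 6.77 ± 0.23 on the log2 scale in high-zinc dez and 7.58 ± 0.40 in high-zinc wild type (SD, n = 2). Whether equal amounts of spike were added is not stated. Of the called probe sets 96.7% were higher in dez in that scaling, against 51.8% as deposited.

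RNA quality controls also moved with genotype. The 25S ribosomal RNA control lay at 9.63 ± 1.19 on the log2 scale in high-zinc dez and 6.56 ± 0.07 in high-zinc wild type (SD, n = 2). Signal at the 3' end over that at the 5' end, averaged for the actin and GAPDH control transcripts, was 1.20 ± 0.01 in log2 units in dez against 1.59 ± 0.11 in wild type. With the 3'-5' measure added to the fit as a covariate, IVD had a log2 difference of -1.25 (limma adjusted p = 0.00618), MCCA one of -1.24 (limma adjusted p = 0.0246) and GAT1_2.1 one of -2.23 (limma adjusted p = 2.29e-04), so all 3 calls were kept.

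**Figure D2:**
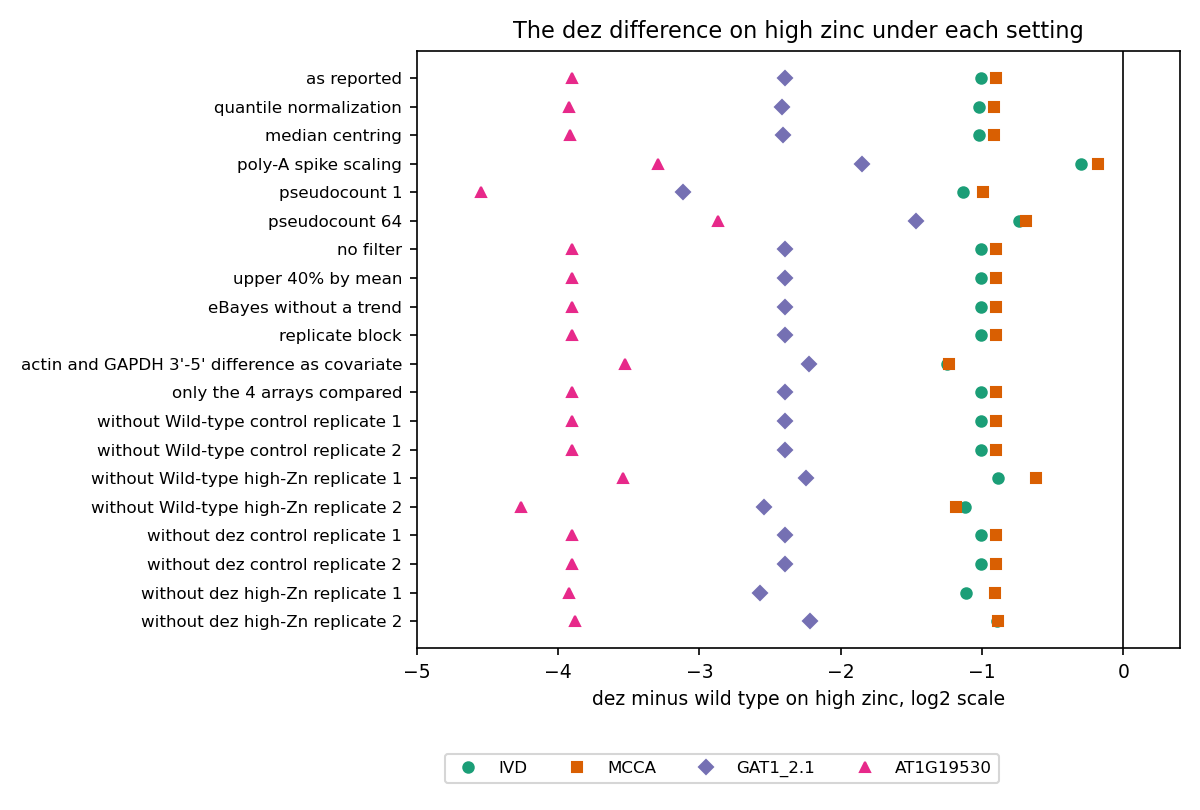
Difference between dez and wild type on high zinc (log2 scale, x axis) of the 4 genes as reported and under each alternative setting and left-out array (rows). All values lie below 0; IVD and MCCA come nearest to it under poly-A spike scaling, at -0.30 and -0.18, and GAT1_2.1 stays between -3.11 and -1.47.

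The effect of zinc itself, within each genotype, shares its control arrays with the comparison that chose the genes, so it is given without a test. In wild type all 4 genes were lower on high zinc in both arrays against both control arrays, which held for 16.7% of tested probe sets. The log2 differences were alike in size, -0.70 ± 0.18 for IVD, -0.80 ± 0.23 for MCCA, -0.66 ± 0.16 for GAT1_2.1 and -0.64 ± 0.26 for AT1G19530 (SE). MCCA had -0.41 without wild-type control replicate 2 and -1.18 without replicate 1, and IVD -0.42 and -0.97. AT1G19530 had -0.28 without wild-type high-Zn replicate 2.

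In dez the genes parted. AT1G19530 was much lower on high zinc, with a log2 difference of -1.56 ± 0.26 and means of 23.7 ± 0.78 on high zinc against 106 ± 46.3 on control medium (SD, n = 2). GAT1_2.1 had -0.59 ± 0.16 and MCCA -0.30 ± 0.23 (SE). The sizes depended on the pseudocount, with -2.04 at 1 and -0.93 at 64 for AT1G19530, and -0.93 and -0.27 for GAT1_2.1. IVD had 0.05 ± 0.18, with arrays that overlapped. In the other 3 genes both high-zinc arrays lay below both control arrays, as in 35.2% of tested probe sets. Scaled to the spikes, where the median over all tested probe sets was 0.35, MCCA had 0.06 and IVD 0.41.

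The interaction is the zinc effect in dez minus that in wild type. It was 0.75 ± 0.25 on the log2 scale for IVD, 0.49 ± 0.33 for MCCA, 0.08 ± 0.22 for GAT1_2.1 and -0.92 ± 0.36 for AT1G19530 (SE). By these estimates IVD and MCCA differed less between the genotypes on high zinc than on control medium, AT1G19530 differed more, and GAT1_2.1 by about the same amount. The genes were picked as large falls on control medium, a choice that by itself favours a smaller difference on high zinc. The interaction values include the control arrays and have no test. Without wild-type control replicate 2 they were 0.48 for IVD and 0.11 for MCCA, and without dez control replicate 1 AT1G19530 had -0.52. The pseudocount moved both dim genes: GAT1_2.1 had -0.22 at a pseudocount of 1 and 0.27 at 64, and AT1G19530 had -1.38 and -0.33.

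IVD and MCCA differed between the wild-type control replicates by more than most probe sets did. In wild type on control medium, replicate 2 was above replicate 1 by 0.55 on the log2 scale for IVD and 0.77 for MCCA, where the SD over all tested probe sets was 0.23. A difference of at least this size upward occurred in 2.24% and 0.513% of tested probe sets. MCCB was also higher in replicate 2, by 0.45, as was AT4G33150, the bifunctional enzyme that begins lysine breakdown, by 1.16. In wild type on high zinc the order of the numbers was opposite, with replicate 2 below replicate 1 by -0.57 for MCCA, -0.24 for IVD, -0.35 for MCCB and -0.89 for AT4G33150.

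AT1G19530 and GAT1_2.1 did not share that split on control medium, where they differed by 0.11 and 0.03 between the wild-type replicates. On high zinc AT1G19530 was lower in wild-type replicate 2, by -0.72. In dez on control medium it had -0.80, larger in size than in nearly all tested probe sets (99.9% at or below it), while IVD and MCCA differed by -0.15 and -0.09. Wild-type control replicates 1 and 2 also had 3'-5' values of 1.99 and 1.57 in log2 units. The part of that difference in the replicate values was not tested.

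**Figure D3:**
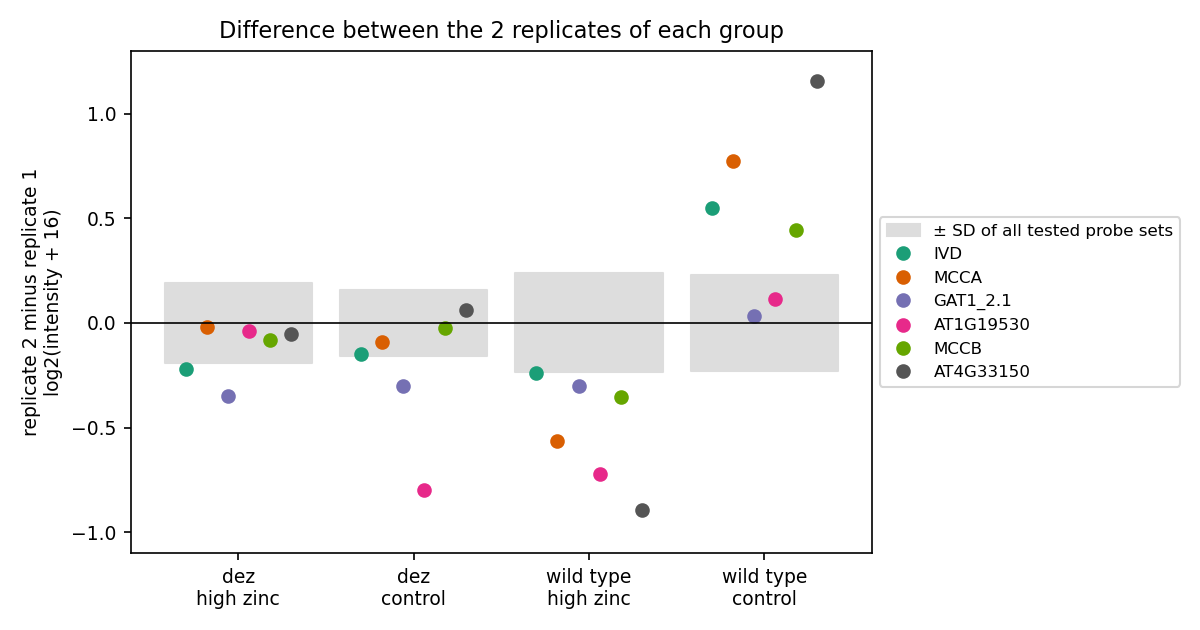
Replicate 2 minus replicate 1 on the log2(intensity + 16) scale in each group for the 4 genes and, for comparison, MCCB and AT4G33150; grey bands are plus and minus the SD of that difference over 13648 tested probe sets. IVD, MCCA, MCCB and AT4G33150 lie above the band in wild type on control medium, between 0.45 and 1.16, and AT1G19530 lies at -0.80 in dez on control medium.

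The other tested genes of leucine breakdown had smaller differences between dez and wild type than IVD and MCCA. Those 2 were picked as large falls on control medium, so there the contrast is built into the choice. Of 15 listed genes other than these 2, 7 had a probe set of their own and all 7 were tested. On high zinc 1 of the 7 fell in dez and 3 rose, where 20.7% of all tested probe sets were lower and 22.2% higher; the list had a median log2 difference of 0.27, against 0.02 over all tested probe sets. MCCB, the partner subunit of MCCA, was the one that fell, by 0.49 ± 0.16 (limma adjusted p = 0.031). It had 151 and 142 in dez against 242 and 186 in wild type. Its call was lost without wild-type high-Zn replicate 1 (limma adjusted p = 0.183) and without dez high-Zn replicate 1 or 2 (limma adjusted p = 0.0887 and 0.142), and with the 3'-5' covariate, where its difference was -0.69 (limma adjusted p = 0.0612). Under poly-A spike scaling its difference turned to 0.25.

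The genes that rose on high zinc were AT5G09300, a subunit of the branched-chain keto acid dehydrogenase that acts just before IVD, and both subunits of the electron carrier ETF. AT5G09300 had 82.2 and 90.1 in dez against 58.8 and 57.5 in wild type, a log2 difference of 0.46 ± 0.11 (limma adjusted p = 0.00611). ETFALPHA and ETFBETA had 0.33 ± 0.11 and 0.42 ± 0.15 (limma adjusted p = 0.034 and 0.0436). ETFQO, which takes electrons from ETF, had -0.29 ± 0.11 and did not pass (limma adjusted p = 0.0525). With the 3'-5' covariate none of the 7 passed in either direction, though AT5G09300 still had 0.42 and ETFALPHA 0.32, with ETFBETA at 0.28. AT5G09300 kept its call with any 1 array left out (limma adjusted p at most 0.0453). The ETFALPHA and ETFBETA calls were lost without wild-type high-Zn replicate 2, without dez high-Zn replicate 2 and without either dez control array. That of ETFALPHA was also lost without dez high-Zn replicate 1. Both were lost with only the 4 arrays compared (limma adjusted p = 0.0744 and 0.0665), and that of ETFBETA with no filter (0.0611).

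On control medium 2 of the 7 fell in dez and none rose, where 5.39% of tested probe sets were lower and 4.2% higher, and the list median was 0.00. MCCB fell by 0.80 ± 0.16 (limma adjusted p = 0.0124), with 160 and 158 in dez against 245 and 340 in wild type. ETFQO fell by 0.43 ± 0.11 (limma adjusted p = 0.0316), with 55.8 and 55.7 in dez against 74.0 and 87.5 in wild type. Neither call was kept without wild-type control replicate 2, without either dez control array, or under poly-A spike scaling. That of ETFQO was also lost without either dez high-Zn array. It did not pass with no filter (limma adjusted p = 0.0562), the 3'-5' covariate (0.0576) or only the 4 arrays compared (0.0575). With zinc in dez AT5G09300 alone rose, by 0.45 ± 0.11 (limma adjusted p = 0.00902), where 16.6% of tested probe sets were higher and 17.4% lower; it did not pass without dez control replicate 1 (limma adjusted p = 0.11) or dez high-Zn replicate 2 (limma adjusted p = 0.0614). With zinc in wild type, and in the interaction, none of the 7 passed, where 0.703% and 19.4% of tested probe sets did.

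**Figure D4:**
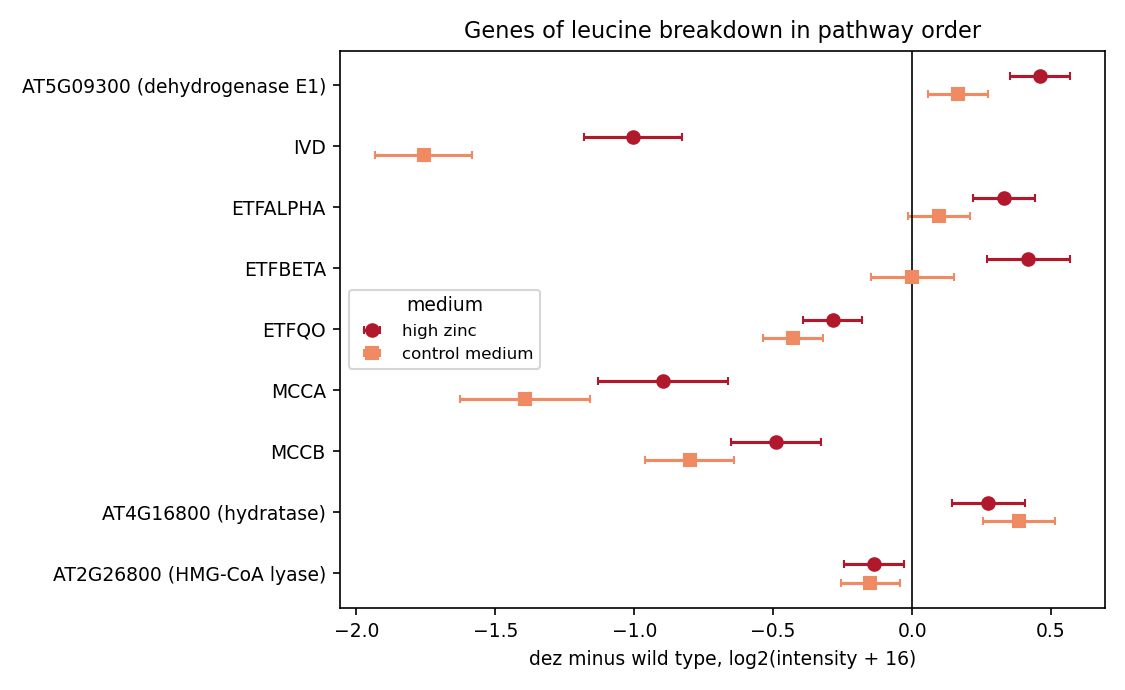
Difference between dez and wild type in log2(intensity + 16) on high zinc (circles) and on control medium (squares) for the 9 genes of leucine breakdown with a tested probe set, in pathway order; error bars are the SE of the limma fit. IVD, MCCA and MCCB lie to the left on both media, between -1.76 and -0.49, while AT5G09300 and the ETF subunits lie at or above 0. On high zinc and control medium ETFQO lies at -0.29 and -0.43, AT2G26800 at -0.14 and -0.15 and AT4G16800 at 0.27 and 0.39.

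Genes that mark carbon starvation could hardly be checked, since single-gene probe sets covered 2 of 25 listed genes. AKINBETA1, a regulatory subunit of the SnRK1 kinase that acts when energy is low, fell in dez on high zinc by 1.39 ± 0.13 (SE, limma adjusted p = 2.55e-05) and on control medium by 0.96 ± 0.13 (limma adjusted p = 0.00188). On high zinc it had 61.0 and 69.1 in dez against 182 and 210 in wild type, and like MCCA, GAT1_2.1 and AT1G19530 it was lowest in dez on high zinc. BZIP53, a transcription factor of the same network, had differences of -0.25 and -0.18 and did not pass. Under poly-A spike scaling neither AKINBETA1 call was kept (limma adjusted p = 0.0559 and 0.271). The 4 genes are therefore named here by themselves and not as a starvation response.

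Of 22 listed genes for the breakdown of other amino acids 5 were tested. None passed on high zinc, where 42.8% of tested probe sets did in either direction. On control medium MGL, methionine gamma-lyase, fell by 0.78 ± 0.12 (limma adjusted p = 0.00273), a call lost under poly-A spike scaling (limma adjusted p = 0.469). AT4G33150 had -0.74 ± 0.34 there and did not pass (limma adjusted p = 0.204), with 148 and 155 in dez against 172 and 403 in wild type.

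Beside GAT1_2.1, 2 of 15 other listed genes of glutamine and asparagine use were tested, and on high zinc 1 rose, where 22.2% of all tested probe sets were higher. ASPGB1, an asparaginase, had 99.7 and 89.6 on high zinc in dez against 39.7 and 40.4 in wild type, and rose by 0.98 ± 0.10 (limma adjusted p = 3.28e-05). ASPGA1, a second asparaginase, had -0.26 ± 0.12 (limma adjusted p = 0.121).

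The tested low-oxygen genes, from the set to which AT1G19530 belongs, split by direction. Of 33 others listed, 12 had a probe set and 7 were tested. All 7 passed on high zinc, 4 higher and 3 lower in dez, where 42.8% of all tested probe sets passed. The rest failed the filter on dim signals. On high zinc AT4G33560 averaged 52.1 in dez against 7.61 in wild type, and AT4G24110 33.1 against 9.6. AT3G10040 averaged 25.5 against 17.2. Arrays of the genotypes overlapped for AT3G23170, at means of 19.8 and 18.4, and AT5G10040, at 5.05 and 4.8. The split thus describes the tested genes only. AT4G39675 fell by 1.84 ± 0.16 (limma adjusted p = 1.1e-05), with 330 and 269 in dez against 1169 and 1044 in wild type. AT1G33055 fell by 1.55 ± 0.18, and so did AT4G27450, named here to complete the count after its value was seen, with a log2 difference of -1.09 ± 0.21. AT3G29970 rose by 1.62 ± 0.13 and AT3G27220 by 0.70 ± 0.09, while AT4G10270 and PDC2, a pyruvate decarboxylase, rose by 0.58 ± 0.14 and 0.40 ± 0.14. The PDC2 call was lost without wild-type high-Zn replicate 1 (limma adjusted p = 0.306) and without any 1 of the dez arrays. It was also lost with a replicate block (limma adjusted p = 0.0532), quantile normalization (0.0707), median centring (0.0570), no filter (0.0726), only the 4 arrays compared (0.0840) and the 3'-5' covariate (0.250). That of AT4G10270 was lost without wild-type high-Zn replicate 2 or dez high-Zn replicate 2, and that of AT4G27450 under poly-A spike scaling. On control medium 2 of the 7 were higher in dez and 3 lower, where 4.2% of tested probe sets were higher and 5.39% lower. There AT4G39675 had -1.20 ± 0.16, AT4G10270 0.88 ± 0.14 and AT4G27450 -0.77 ± 0.21 (SE, limma adjusted p = 0.0013, 0.00375 and 0.046). AT1G33055 had -0.76 ± 0.18 and AT3G27220 0.36 ± 0.09 (limma adjusted p = 0.0241 and 0.0287). Under poly-A spike scaling only AT4G10270 kept its control-medium call. The AT4G27450, AT1G33055 and AT3G27220 calls were also lost with the 3'-5' covariate. The same held without either wild-type control array or dez control replicate 2. Those of AT4G27450 and AT3G27220 were also lost without dez control replicate 1. That of AT4G27450 was also lost at a pseudocount of 1 and with no filter.

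Of 21 listed genes for branched-chain amino acid synthesis and related enzymes 6 were tested, and on high zinc 3 rose and none fell, where 22.2% of all tested probe sets were higher and 20.7% lower. The 3 that rose are aminotransferases, and the other 3, AT2G31810, AT3G23940 and AT3G58610, did not pass (limma adjusted p = 0.372, 0.444 and 0.399). BCAT4, an aminotransferase that serves methionine-derived glucosinolates, had the widest change, with a mean of 1156 ± 13.0 in dez against 29.5 ± 0.59 in wild type (SD, n = 2). ATBCAT-5, a plastid aminotransferase, rose by 0.78 ± 0.13 (limma adjusted p = 6.85e-04) and AT1G50110, a relative, by 0.36 ± 0.12 (limma adjusted p = 0.0317). The AT1G50110 call was lost without dez high-Zn replicate 2 (limma adjusted p = 0.222), without either wild-type high-Zn array and without either dez control array. Of 3 tested genes of seed oil use 1 rose and 1 fell, against the same shares of all tested probe sets. AIM1 of beta-oxidation rose by 0.63 ± 0.14 and the lipase SDP1 fell by 0.41 ± 0.13 (limma adjusted p = 0.00387 and 0.0249). ICL, isocitrate lyase, had 0.24 ± 0.20 and did not pass. The SDP1 call was lost without wild-type high-Zn replicate 1 or either dez high-Zn array, and its difference turned to 0.24 under poly-A spike scaling. On control medium 2 of the 6 synthesis genes rose in dez and 1 fell, and 1 of the 3 seed oil genes fell. Of all tested probe sets 4.2% were higher there and 5.39% lower. BCAT4 had 2.48 ± 0.12, AT1G50110 0.63 ± 0.12, AT2G31810 -0.49 ± 0.13 and SDP1 -0.56 ± 0.13 (SE, limma adjusted p = 4.06e-06, 0.00876, 0.0409 and 0.0223). The AT2G31810 and SDP1 calls were lost under poly-A spike scaling and with only the 4 arrays compared. Those of AT2G31810 and AT1G50110 were lost with the 3'-5' covariate, and that of AT2G31810 also with no filter. Without wild-type control replicate 2 or either dez control array, the AT2G31810, SDP1 and AT1G50110 calls were all lost. That of AT2G31810 was also lost without either dez high-Zn array.

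Profiles over the 8 arrays were compared by the root mean square difference of log2(intensity + 16) values, each profile centred on its own mean, against 7283 other tested probe sets of 1 gene. All profiles share the same 8 arrays, and the genes had been chosen for being low in dez, so the nearest profiles are a description. For IVD the nearest were STR18, a sulfurtransferase, at 0.15, AT2G32150 at 0.16, AT1G05340 and MCCA at 0.21 each, and AT5G66650 at 0.23. For MCCA the nearest of all was IVD, at 0.21, followed by AT1G61590, AT1G10140, AT1G14120 and AT5G18640 between 0.24 and 0.27. MCCA thus stood at rank 4 in the order of IVD, and IVD at rank 1 in that of MCCA.

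GAT1_2.1 was nearest to AT2G20670 at 0.34, followed by OCT1, an organic cation transporter, at 0.40, AT2G15960, AT3G49790 and the linker histone gene HIS1-3 at 0.48. AT1G19530 was nearest to AT3G15450 and AT2G05540, both at 0.44, followed by GAT1_2.1 at 0.64, AT2G20670 and OCT1. AT3G15450 and AT2G05540 had log2 differences of -3.50 and -4.00 between dez and wild type on high zinc, beside -3.90 for AT1G19530. IVD and MCCA stood at ranks 47 and 64 from AT1G19530, with differences of 1.20 and 1.26, beside a spread of AT1G19530 about its own mean of 1.84. In the other direction AT1G19530 stood at rank 7127 from IVD and 7186 from MCCA, of 7283 profiles compared. GAT1_2.1 stood at ranks 512 and 3081 from IVD and MCCA. The measure is not scaled by the spread of a profile, so ranks need not match between directions.

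**Figure D5:**
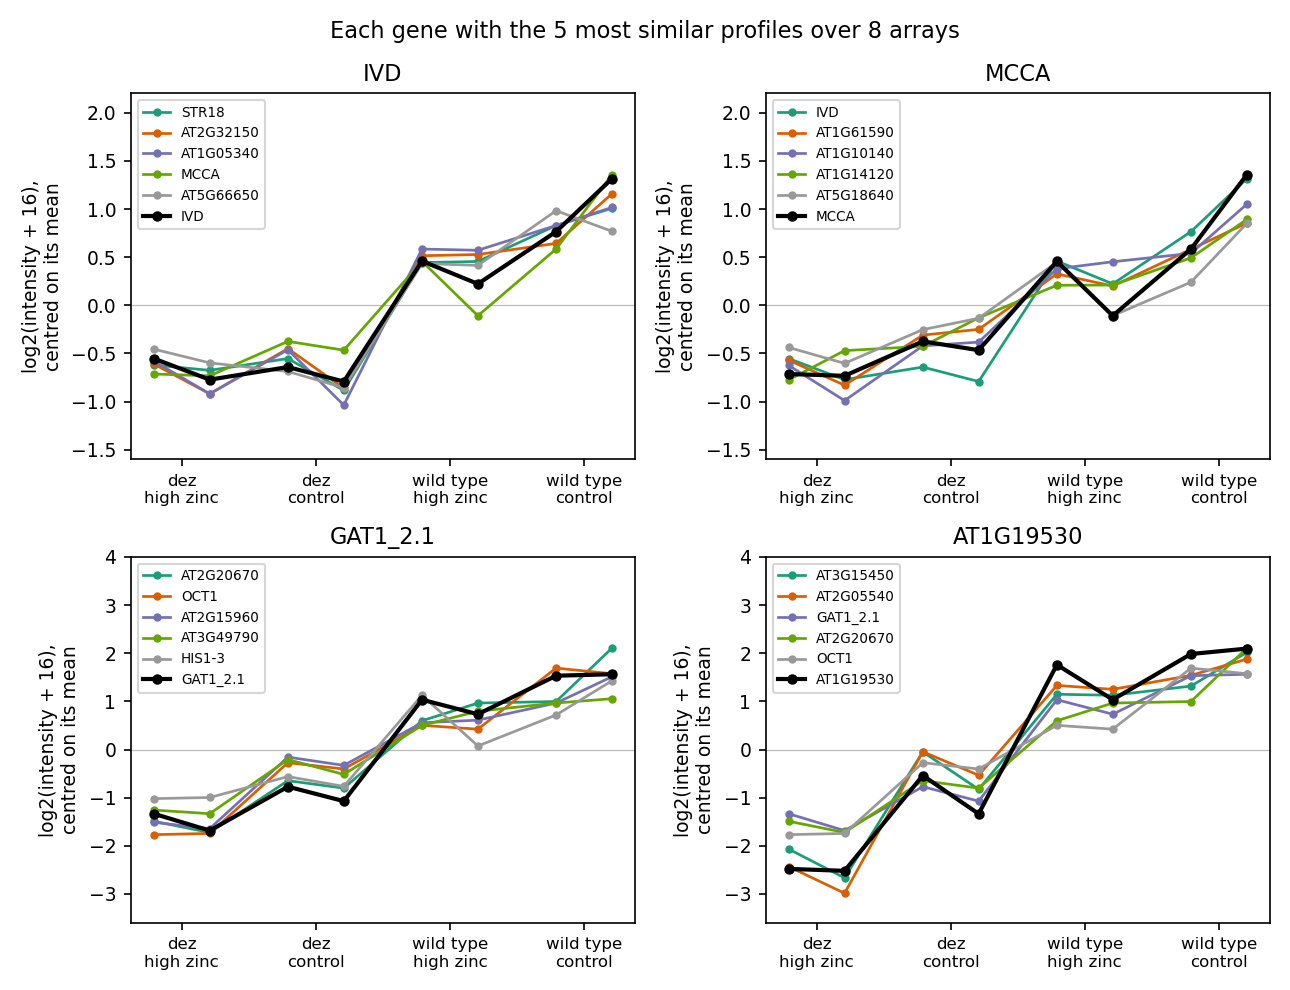
Each of the 4 genes (black) with the 5 most similar single-gene profiles, as log2(intensity + 16) centred on its mean over 8 arrays, with the 2 replicates of each group side by side; the y axis is wider in the lower panels. IVD and MCCA appear in each other's panel, and GAT1_2.1 appears in that of AT1G19530.

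Array medians of all probe sets other than controls were close, and upper quartiles lay between 101.5 and 104.7. TBR did not pass in any of the 5 comparisons (limma adjusted p from 0.0864 to 0.661) and, with the lesion unplaced, does not check the genotype labels. Of 20 marker genes for darkness, light, roots and seed reserves 4 had a probe set. PORB, an enzyme of chlorophyll synthesis made in dark-grown seedlings, had 634 ± 102 in dez on high zinc and 1576 ± 232 in dez on control medium, against 2046 ± 172 and 2019 ± 205 in wild type on the same media (SD, n = 2). The root gene PYK10 lay between 2827 and 3878 on all arrays, and the other root-listed gene, AT2G14900, had 899 and 1154 in dez on high zinc against 697 to 815 on the other 6 arrays. The seed oleosin OLEO3 averaged 26.0 ± 1.88 in dez on high zinc and 77.1 ± 21.5 in dez on control medium, against 85.5 ± 19.0 and 101 ± 35.7 in wild type on the same media (SD, n = 2). Their part in the results was not tested.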

How the data were processed

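Biotin-labelled RNA of whole seedlings was read on ATH1 arrays, 1 per sample, per the labels' protocols. The deposited table holds 1 linear intensity per probe set and array; MAS5 is named per the submitters' processing notes, with no role or version, and the authors' scaling of these intensities is not stated. No background level can be stated.

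Of 22810 probe sets, 64 controls were left out. Values were taken to log2(intensity + 16), and 13648 probe sets, the brightest 60% on average, were kept. Group means were fitted to the 8 arrays with limma 3.58.1 (R 4.3.3; eBayes with a trend, 4 residual degrees of freedom), with two-sided tests, Benjamini-Hochberg adjustment over all tested probe sets in each of 5 comparisons and a threshold of 0.05. The fit was tested on simulated data. The p-values set each difference against the spread between these samples, moderated by that of all tested probe sets (6.28 prior degrees of freedom).

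Genes were named through the platform annotation, matched to RefSeq TAIR10.1 by gene identifier: 13513 probe sets had 1 gene, of which 13436 matched, 503 had several and 8730 were not listed. Where a listed gene had several tested probe sets, the brightest was used. Of 151 genes in 7 lists, 39 other than the members had a probe set and 32 were tested. Named list genes came mostly from the 4 tested ones with the smallest adjusted p per list for dez on each medium and zinc in dez. Not all of these are named, and some genes outside them are. Zinc in dez is described as a comparison for leucine breakdown only. The 5 nearest profiles were named per member. A glutamine synthetase gene entered among the root markers, also on another list, was left out of the markers. The members, lists, tests and alternatives were chosen with earlier results of these data known. Alternatives were 2 other normalizations, poly-A spike scaling, pseudocounts of 1 and 64, 2 filters, no trend, a replicate block, a 3'-5' covariate, only the 4 arrays compared, and each array left out.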

Additional observations from a re-analysis of the deposited data

Results flagged for a closer look

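For 6 genes of the lists limma's interaction test passed, so their zinc effects were unequal in the 2 genotypes; 19.4% of all tested probe sets passed it. BCAT4 had an interaction of 2.21 on the log2 scale, with a zinc effect of 3.00 in dez and 0.785 in wild type. AT3G29970 of the low-oxygen list had 1.89, with zinc effects of 1.73 in dez and -0.16 in wild type. ASPGB1 had 0.98, with 1.07 in dez and 0.09 in wild type. MGL had 0.87, with 0.33 in dez and -0.54 in wild type, a call lost under poly-A spike scaling (limma adjusted p = 0.187). ATBCAT-5 had 0.59, with 0.55 in dez and -0.05 in wild type. AT1G33055 had -0.80, with -1.29 in dez and -0.49 in wild type. The ATBCAT-5 and AT1G33055 calls were lost under poly-A spike scaling (limma adjusted p = 0.362 and 0.664), with a replicate block (0.0622 and 0.0553) and in 6 and 5 of the 8 fits that leave out 1 array, with limma adjusted p up to 0.144 and 0.189, both without dez control replicate 1.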

How the results depend on the processing

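IVD and GAT1_2.1 kept direction and call on high zinc in all alternatives except poly-A spike scaling for IVD (-0.30), and MCCA in all except that scaling (-0.18) and 3 left-out arrays. With 1 array left out IVD ranged from -1.12 to -0.89, MCCA from -1.18 to -0.61 and GAT1_2.1 from -2.57 to -2.22. Poly-A spike scaling turned the high-zinc differences of MCCB, ETFQO and SDP1 to 0.25, 0.36 and 0.24. It gave 369 calls for dez on control medium (1308 as deposited), 2027 for zinc in dez (4645), 28 for zinc in wild type (96) and 545 for the interaction (2653). The shares higher were 85.1%, 88.5%, 71.4% and 83.5% in that scaling, against 43.8%, 48.9%, 65.6% and 45.6%, and the cause was not tested. The 3'-5' covariate left 3445 calls for dez on high zinc (5846) and 700 on control medium. With only the 4 arrays compared, 26 passed for zinc in wild type. With 1 array left out, counts ranged from 4225 to 6029 for dez on high zinc, 359 to 1517 for dez on control medium, 2868 to 4853 for zinc in dez, 49 to 106 for zinc in wild type and 1621 to 2791 for the interaction. A lone array left in a group is assumed to vary like the other groups.

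The labels share replicate numbers but do not say that they pair samples. Deviations of same-numbered samples correlated between -0.36 and 0.37 over 6 pairs of groups. Whether samples of the same number were grown or processed together was not tested. With the replicate block the high-zinc differences had limma adjusted p = 0.00229 for IVD, 0.0172 for MCCA and 2.4e-06 for GAT1_2.1, while it ended the calls of ETFALPHA (0.0505) and PDC2 (0.0532) on high zinc and of AT4G27450 (0.0505) and AT2G31810 (0.0628) on control medium, beside the 2 interactions given above. Arrays in this number limit what small differences can be seen.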
